A study of Mus musculus with 12 samples.

Results

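The cadherins and non-clustered protocadherins were followed in mouse adherent neural stem (ANS) cells on their way to GABAergic neurons. The members were all gene symbols of the count tables made of Cdh and a number, or of Pcdh and a number with or without an x, that had at least 1 read in some library. Of the 22609 genes counted, 36 symbols met the pattern and 32 of them had a read, 21 named Cdh and 11 named Pcdh. Cdh8, Cdh9, Cdh12 and Pcdh20 had 0 counts in all 12 libraries. The clustered protocadherins (Pcdha, Pcdhb and Pcdhg) were left out by the rule, whatever their values.

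ANS cells came from normal mouse embryonic brain at E14.5 and grow as an adherent layer in serum-free medium. The 3 T0 libraries were of proliferating cells in growth medium with 20 ng/ml FGF2 and 20 ng/ml EGF. The 3 T1 libraries were taken 2 days after the change to medium D1, which holds 10 ng/ml FGF and 2 ng/ml EGF, when proliferation was much reduced. The 4 T2 libraries were taken 2 days after the change to medium B, with 10 ng/ml FGF2, 20 ng/ml BDNF and no EGF, and the 2 T3 libraries (replicates 1 and 4) 10 days after that change, labelled as overtly differentiated and GAD+. All groups carry the same unmodified genotype. Cells were neither sorted nor selected, and between D1 and B they were detached and seeded again on laminin, so time, medium and substrate change together and cannot be told apart.

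Cadherins are calcium-dependent adhesion proteins whose outer repeats bind the like protein on the next cell. The classical ones hold p120 and beta-catenin on their cytoplasmic tails, and alpha-catenin links these to actin. In the embryonic brain N-cadherin (Cdh2) holds the neuroepithelium together at its apical junctions, while type II cadherins are expressed in combinations that differ between regions and neuron classes. The non-clustered protocadherins adhere more weakly, lack the catenin-binding tail and are known for axon growth, sorting of cells and synapse formation.

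The libraries held from 8910724 to 16631614 gene reads each, and the members took 0.0851% to 0.137% of them. Levels of one gene across libraries are given as CPM, its reads brought to a common library total after TMM scaling, which corrects for a few genes taking many reads. T0 replicate 3 stood apart. The chi-square per gene was 101.4 and 105.3 against T0 replicates 1 and 2, and 3.28 between those. Its Gfap level was 0.494 CPM against 146 and 148 CPM. T3 replicates 1 and 4 differed more from each other (34.1) than any pair within T1 or T2. Of the neuronal markers, Mtap2 was at 880 to 917 CPM at T0 and at 1310 to 2190 CPM in the other 9 libraries, Tubb3 at 10.7 to 33.4 and 89.4 to 176 CPM, and Gad1, the GABAergic one, was at 1.2 to 4.03 CPM at T0 and at 23.9 to 56.4 CPM later. Of the GABAergic markers, Gad2, Slc32a1, Dlx2, Dlx5 and Dlx6 had at most 10 counts in every library. Dlx1 did not rise, with group means of 3.36, 3.25, 2.84 and 1.94 CPM from T0 to T3. The neural progenitor markers still summed to 5390 and 5630 CPM in the T3 libraries, within the T0 range of 5320 to 7440 CPM. Among the 6 of them tested against T0, Hes5 was called lower in T1 and T2, Vim in T2 only, and none in T3, where 4.72% of all genes were called. Hes5 and Vim still lay below every T0 library at T3. Their log2 fold changes there were -2.04 and -0.6 (adjusted p = 0.053 and 0.13 in edgeR's test). Nes, Sox2, Pax6 and Fabp7 overlapped T0 at T3. The oligodendrocyte-lineage genes summed to 3510 to 6300 CPM over all libraries, led by Olig1 and Olig2. Pdgfra, a marker of oligodendrocyte precursors on that list, rose from 3.67 to 30 CPM at T0 to 89.1 to 195 CPM at T1 and 143 to 189 CPM at T2 (log2 fold change 2.83 and 3.02, adjusted p = 0.023 and 0.0039 in edgeR's test), and Mog, of mature oligodendrocytes, was higher at T2 (3.07, adjusted p = 0.008) at no more than 2.99 CPM. Mog had 3, 8 and 0 counts at T0 and entered its test through the T2 libraries. The sum of the list was higher in every later library than in any T0 library, and the list was not tested as a set. Of its genes, 1 of 7 tested was called higher in T1, 3 of 8 in T2 and none in T3. Of all genes, 15.1%, 21.4% and 3.31% were called higher. At T3 4 of the 8, Sox10 among them as lower, had an unadjusted p under 0.05 in edgeR's test, and the median log2 fold change was 0.62. None was called lower. Sox10, also on the list, went down, with group means of 2.23, 0.38, 0.467 and 0.22 CPM in time order. The part of these genes in the changes of the members was not tested. Markers of microglia, epithelium and glutamatergic neurons were at or near 0, 5 of 5, 6 of 6 and 4 of 5 of them with at most 10 counts in every library.

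Most of the family was either clearly present or close to 0 reads. Of the 32 members, 18 had counts in all 12 libraries and 12 had at most 10 counts in every library. The latter include Cdh1 (E-cadherin, 3 reads in all), Cdh3 (P-cadherin, 2 reads), Cdh5 (the cadherin of endothelial junctions, 3 reads), the kidney and gut cadherins Cdh16 and Cdh17 (4 and 2 reads), Cdh26 (4 reads), and the type II cadherins Cdh7, Cdh18 and Cdh19 (1, 3 and 11 reads). Pcdh12, known from endothelium, had 17 reads and Pcdh17 had 25. Endothelial Pecam1, Cldn5 and Emcn likewise had at most 10 counts in every library, and the whole endothelial list summed to 1.73 to 3.88 CPM. Apart from Cdh29, no difference between time points was called for them in any fit. Cdh29 had 30 reads, of which 17 lay in the 3 T1 libraries (6, 5 and 6) and 1 in the T0 libraries. This symbol has no gene of its own name in the GENCODE vM1 annotation and is a synonym of Cdhr4 in RefSeq. The count tables also hold Cdhr4 as a separate entry, with 0 counts in each T0 library, 4, 4 and 2 at T1 and 1, 2, 7 and 5 at T2. Cdh29 fell under the count filter of the main fits, and without that filter or with DESeq2 it was higher at T1 than at T0 (log2 fold change 3.68 ± 0.91 and 4.01 ± 1.55, adjusted p = 0.023 and 0.031), a size that rests on 1 T0 read.

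Members with many reads and symbols with few or none were neighbours in the genome. On chromosome 15 (mm9) Cdh6 (chr15:12963955-13103394) and Cdh10 (chr15:18748702-18943990) had 2094 and 1735 reads in all, while Cdh9 (chr15:16707856-16786522), which lies between them, and Cdh12 (chr15:21041207-21519288) had none, and Cdh18 (chr15:22478777-23404173) had 3. The deposited FPKM values of Cdh18 were 0.151, 0.206 and 0.0795 at T0, where it had 0 counts, so the 2 measures differ for it. On chromosome 8, 3 of 8 symbols passed 10 counts in some library. On chromosome 1 Cdh20 did, and the next symbols Cdh7, 4986846 bases away, and Cdh19 did not. The 300 bases from 250 before to 50 after the start site were in the RefSeq promoter table (GRCm38.p6) for 22 of the 36 symbols. CG pairs, which read the same on both strands, numbered 2 to 38 (median 16) in 14 members over 10 counts and 4 to 26 (median 10.5) in 8 symbols at or under 10 counts. Over all 27025 symbols of the table the median was 7, with at least 1 CG in 94.2% and at least 10 in 43.9%. Cdh10 had 2 CG and its neighbour without reads, Cdh9, had 8. The 30 bases just before the start site are printed for 5 genes (GRCm38.p6 positions), namely Pcdh10 and Cdh20 as abundant members, Pcdh15 for its fold change and the neighbours Cdh10 and Cdh9, with CG in capitals.
Pcdh10 (chr3:45378368-45378397, plus strand): CGctgCGcaaaaacagagaagCGgagCGct
Cdh20 (chr1:104768490-104768519, plus strand): caagaccCGCGgtacaCGcaggaggcagcc
Pcdh15 (chr10:73821837-73821866, plus strand): aaaagcaggaggagcaggagCGctaattgc
Cdh10 (chr15:18820299-18820328, plus strand): tcttttaaaaCGtagttacaagagcttcac
Cdh9 (chr15:16728885-16728914, plus strand): ttaaaagtggtgctgaaagagaggctcagc

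For the order of levels between genes the deposited FPKM values were used, which are per transcript length. At T0 Cdh4 (R-cadherin, a type I cadherin first described in retina) was the most abundant member at 37.7 ± 5.91 FPKM (SD, n = 3), followed by Cdh2 at 23.6 ± 3, Pcdh10 (a delta-2 protocadherin) at 19.2 ± 3.51 and Cdh20 (type II) at 12.8 ± 0.334 FPKM. The ranges of these 4 did not overlap between neighbours in the order, while from the fifth, Pcdh11x at 9.34 ± 1.77 FPKM, to Cdh6 each overlapped the next. At T1 the order had changed. Pcdh11x, an X-linked delta-1 protocadherin, stood first at 40.4 ± 7.48 FPKM, overlapping Pcdh10 at 30.8 ± 4.62, which overlapped Cdh2 at 30.7 ± 1.5. Cdh4 was the fourth at 18.3 ± 2.08 FPKM and overlapped Cdh20. At T2 Pcdh11x stood above all other members without overlap at 40.1 ± 3.03 FPKM (n = 4), and Cdh4 was at 14.1 ± 5.63. At T3 Pcdh11x at 28.5 ± 19.8 FPKM (n = 2), Pcdh10 at 26.3 ± 10.8 and Cdh2 at 24.5 ± 4.06 overlapped, and Cdh4 was the seventh at 8.34 and 8.88 FPKM. In all, 17 members reached a mean of 1 FPKM at some time point and 15 did not.

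**Figure D1:**
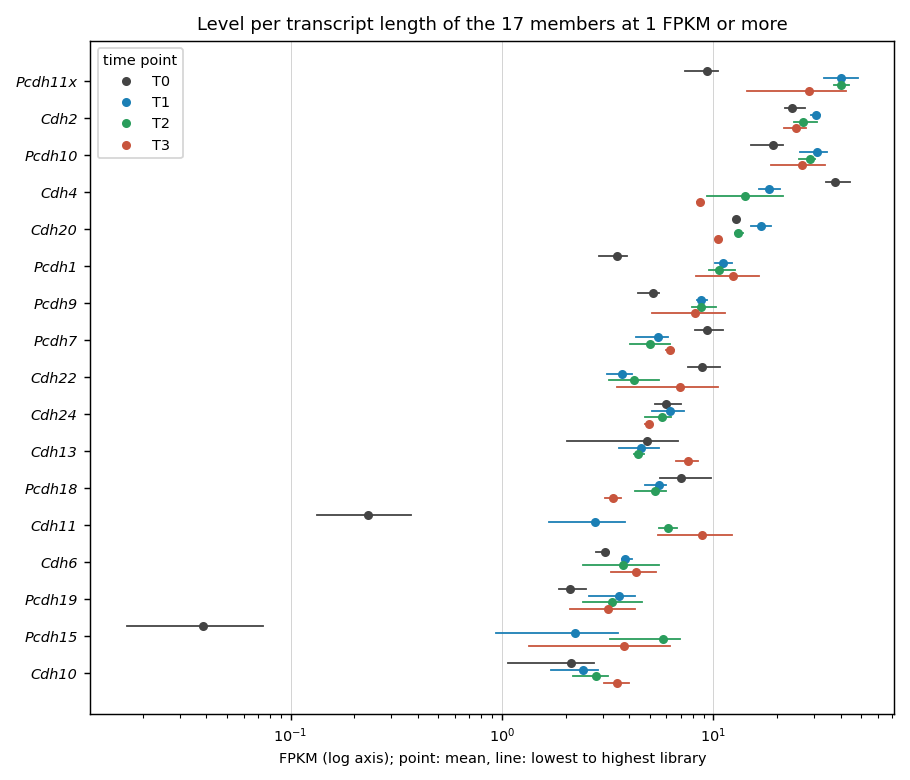
FPKM on a log axis for the 17 members with a mean of at least 1 FPKM at some time point, each with 4 rows from T0 (top) to T3. Points are means and lines run from the lowest to the highest library (n = 3, 3, 4 and 2). Cdh4 moves left from 37.7 to 8.61 FPKM while Pcdh11x moves right from 9.34 to 40.4 FPKM at T1, and Cdh11 and Pcdh15 start near or under 0.3 FPKM.

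The make-up of the summed member FPKM shifted from cadherins to protocadherins, mostly from type I cadherins to delta-1 protocadherins. Protocadherins took 37.3%, 37.8% and 32.5% of it at T0, 55%, 57.8% and 50% at T1, and 54.3% to 59.9% at T2, so T0 did not overlap T1 or T2. T3 replicate 1 stood at 59.3% and T3 replicate 4 at 44.1%. The mean share of type I cadherins was 39.2%, 25.1%, 21.6% and 20.1% from T0 to T3, and that of delta-1 protocadherins 17.6%, 33%, 34.1% and 30.7%. Type II cadherins (21.3%, 18.1%, 19% and 23.6%) and delta-2 protocadherins (18.2%, 20.1%, 19.8% and 19%) moved less. The Cdh4 share was 24.1% ± 2.93 (SD) in proliferating cells, then 9.35% ± 1.88, 7.36% ± 2.5 and 5.25% ± 1.82 at the later times, and Pcdh11x went from 6.02% ± 1.31 to 20.3% ± 2.06, 21.2% ± 1.24 and 15.4% ± 6.71. The share of Cdh2 lay between 13% and 17.8% in all 12 libraries. The ratio of Cdh4 to Cdh2 FPKM was 1.55 to 1.64 at T0 and 0.305 to 0.691 in the 9 later libraries. These shares are a description with no test.

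**Figure D2:**
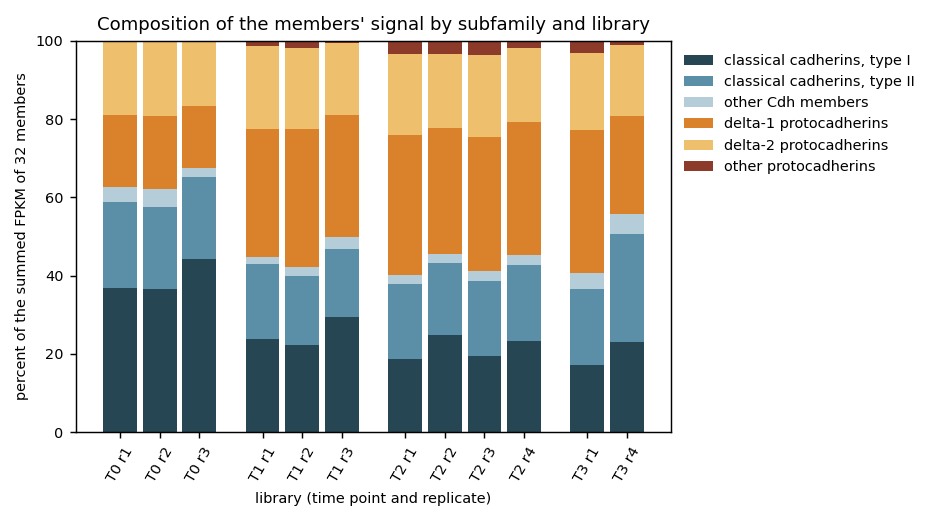
Percent of the summed FPKM of the 32 members taken by each subfamily in each of the 12 libraries, stacked to 100%. Cdh29, at most 0.236% in any library, is not drawn. The orange, yellow and red parts (protocadherins) take 32.5% to 37.8% at T0 and 50% to 59.9% at T1 and T2, and the 2 T3 libraries differ, at 59.3% and 44.1%.

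The comparisons of T1, T2 and T3 with T0 ask how the family changed from proliferating cells to each stage. At T1 the delta protocadherins Pcdh1, Pcdh9, Pcdh10, Pcdh11x and Pcdh19, the tip-link gene Pcdh15 and the cadherins Cdh2, Cdh11, Cdh15 and Cdh20 rose, and Cdh4, Cdh22, Cdh23 and Pcdh7 fell. At T2 Cdh2 and Cdh20 no longer passed, and at T3 Cdh11, Pcdh1 and Pcdh15 were higher and Cdh4 lower. With edgeR's quasi-likelihood test and Benjamini-Hochberg adjustment over all genes, 14 of 19 members tested passed an adjusted p of 0.05 at T1, 4 lower and 10 higher, against 31.9% of all 12364 genes tested (16.8% lower, 15.1% higher). At T2 12 of 19 passed, 4 lower and 8 higher, against 43.3% of 12607 genes (21.8% and 21.4%). At T3 4 of 20 passed, 1 lower and 3 higher, against 4.72% of 12721 genes (1.41% and 3.31%). With DESeq2 15, 12 and 7 members passed, against 34.9%, 42.9% and 14.8% of all genes. In each called member the libraries of the 2 times did not overlap, which also held for 99.9%, 98.5% and 100% of all called genes. Without T0 replicate 3, which stood apart, 15 (5 lower), 14 (5 lower) and 5 (1 lower) members passed, against 50.1%, 52.1% and 18.4% of all genes. The median log2 fold change of the members tested was 0.39, 0.43 and 0.8, and that of all genes was -0.0082, 0.0023 and -0.0149. Members enter a test only with enough reads, so the edgeR counts describe 19 or 20 members and the DESeq2 counts, which include Cdh29 at T1, 21 or 22, and not all 32. Pcdh15 and Cdh15 passed the count filter through the later libraries and Cdh23 through T0, with few reads on the other side. A difference was partly built into their entry, so their calls add little to these counts. The same filter held for all genes. The 3 comparisons share the T0 libraries. In bulk RNA, fewer cells of a type and less RNA per cell cannot be told apart.

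**Figure D3:**
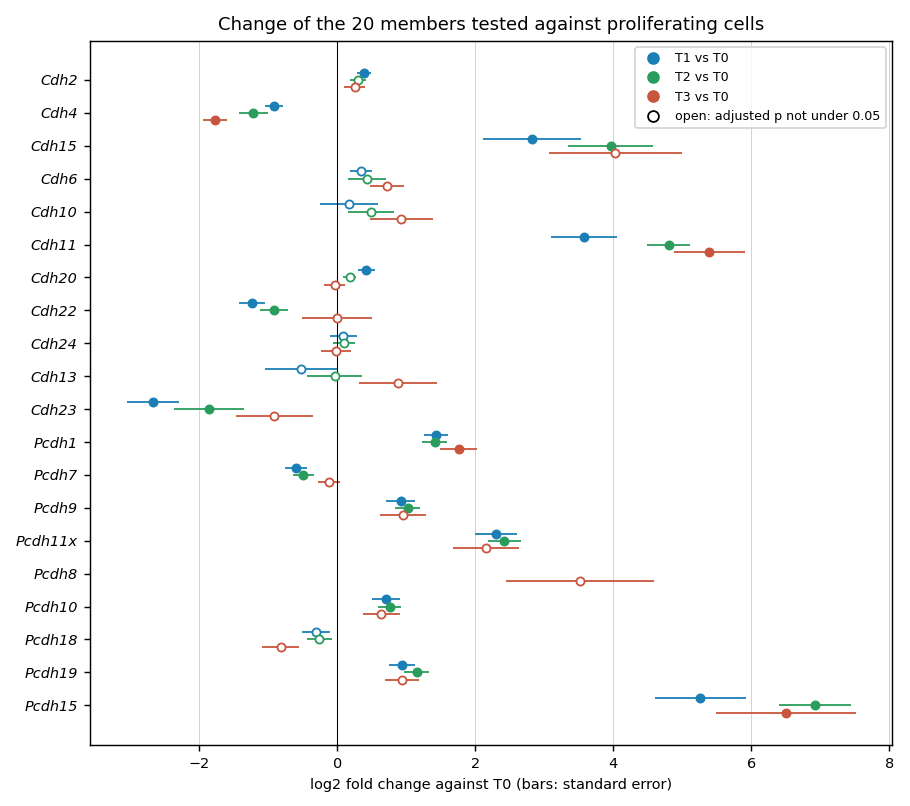
Log2 fold change against T0 (horizontal axis, fitted by edgeR) of the 20 members tested, for T1, T2 and T3. Bars are standard errors derived from the F statistic of the test. Filled points passed an adjusted p of 0.05. Cdh11 and Pcdh15 lie farthest to the right (3.57 to 6.92), Cdh23, Cdh22 and Cdh4 lie to the left at T1 and T2, and most T3 points are open.

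Cdh4 (chr2:179177136-179634078, plus strand, mm9) fell at every stage. It stood at 278, 280 and 294 CPM in the T0 libraries, at 142, 139 and 174 CPM at T1, at 92.3, 163, 89.4 and 143 CPM at T2, and at 74.4 and 91.1 CPM at T3. All 9 later libraries lay below all 3 T0 libraries, and T2 replicates 2 and 4 lay as high as T1. On the log2 scale the change was -0.91 ± 0.13 (SE, adjusted p = 0.0028) at T1, -1.22 ± 0.21 (adjusted p = 0.0027) at T2 and -1.77 ± 0.17 (adjusted p = 0.014) at T3. The T3 call was lost without T0 replicate 1 or 2 or without either T3 library (log2 fold change -1.92 to -1.62, adjusted p = 0.069 to 0.14).

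Cdh2, the N-cadherin of the neural tube, changed little beside it. It stood at 127, 131 and 140 CPM at T0, at 164, 183 and 181 CPM at T1, at 152, 190, 147 and 161 CPM at T2 and at 167 and 147 CPM at T3. It passed at T1 only (log2 fold change 0.39 ± 0.1, adjusted p = 0.028), and that call was lost when any library but T0 replicate 3 was left out (0.36 to 0.44, adjusted p = 0.072 to 0.1). At T2 and T3 the log2 fold changes were 0.30 ± 0.12 and 0.25 ± 0.15 (adjusted p = 0.068 and 0.32). Cdh15 (M-cadherin, known from muscle) rose from 4, 2 and 0 counts at T0 to 12, 10 and 23 counts at T1 and 34, 25, 17 and 38 counts at T2, with 15 and 35 at T3. Its level stayed under 4 CPM in every library. Its log2 fold change was 2.82 ± 0.71 (adjusted p = 0.025) at T1, 3.96 ± 0.62 (adjusted p = 0.0015) at T2 and 4.03 ± 0.96 (adjusted p = 0.069) at T3. The size rests on 6 T0 reads and was 3.76 at T1 and 4.9 at T2 without T0 replicate 1, and the T1 call was lost without T0 replicate 2 or any T1 library (adjusted p = 0.064 to 0.094).

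Of the type II cadherins, 6 were tested against T0. Cdh11 (chr8:105156895-105309011, minus strand), known as OB-cadherin from bone and mesenchyme, rose most. It stood at 1.12, 2.21 and 0.776 CPM at T0, 16.7, 23.4 and 9.73 CPM at T1, 40.8, 37.5, 34.9 and 41.2 CPM at T2, and 75.9 and 38.8 CPM at T3. The T0, T1 and T2 libraries formed 3 ranges that did not overlap. Its log2 fold change was 3.57 ± 0.48 (adjusted p = 0.0025) at T1, 4.8 ± 0.31 (adjusted p = 5e-05) at T2 and 5.39 ± 0.51 (adjusted p = 0.014) at T3. Fibroblast and mural markers summed to 0.452 to 1.94 CPM in every library, with Col1a2, Col3a1 and Dcn at or under 10 counts. The calls at T1 and T2 held in all 12 and 13 alternatives, and that at T3 was lost without T0 replicate 1 or either T3 library (4.83 to 5.79, adjusted p = 0.066 to 0.14).

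Cdh22 (chr2:164937007-165060353, minus strand) went the other way and then parted between the T3 libraries. It stood at 34.1, 39.2 and 47.4 CPM at T0, 14.1, 19.2 and 18.4 CPM at T1 and 18.9, 26.1, 15.6 and 24.3 CPM at T2, all below T0. At T3 replicate 1 had 17.5 CPM, like T2, and replicate 4 had 62.8 CPM, above every T0 library. It fell by 1.23 ± 0.19 (adjusted p = 0.0038) at T1 and by 0.92 ± 0.2 (adjusted p = 0.0072) at T2 on the log2 scale, and both calls held in all 12 and 13 alternatives. At T3 the value was 0 ± 0.51 (adjusted p = 1). Cdh20 stood at 70, 69.7 and 63.9 CPM at T0 and in T1 replicates 1, 2 and 3 at 100.8, 93 and 80.7 CPM (log2 fold change 0.42 ± 0.12, adjusted p = 0.039). At T2 it was at 73.7 to 78.4 CPM and at T3 at 60.9 and 69.6 CPM, with adjusted p = 0.15 and 0.88. The T1 call was lost without T0 replicate 1 or 2 or T1 replicate 1 or 2 (0.35 to 0.44, adjusted p = 0.083 to 0.16) and with no filter on low counts (0.42, adjusted p = 0.051). Cdh6, Cdh10 and Cdh24 passed in none of the 3 comparisons. Cdh24 stayed within 19.6 and 28.1 CPM in all 12 libraries, and Cdh6 ranged from 9.05 to 21.4 CPM. Cdh10 was at 11.5 and 11.1 CPM in T0 replicates 1 and 2, at 4.09 CPM in T0 replicate 3 and at 16 and 17.7 CPM at T3.

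Among the other cadherins, Cdh23 fell and Cdh13 turned on 1 library. Cdh23 (chr10:59765496-60159238, minus strand), which forms the tip links of inner-ear hair cells with Pcdh15, had 21, 30 and 28 counts at T0, 2, 5 and 5 at T1, 3, 10, 1 and 11 at T2, and 6 and 14 at T3. Its log2 fold change was -2.67 ± 0.38 (adjusted p = 0.0029) at T1, -1.86 ± 0.51 (adjusted p = 0.019) at T2 and -0.91 ± 0.56 (adjusted p = 0.35) at T3. Without T2 replicate 1 the T2 value was -1.71 (adjusted p = 0.054). In the FPKM table the 3 T0 values were 0.157, 0.25 and 1.61, a spread that the counts do not have. Cdh13 (T-cadherin, held in the membrane by a lipid anchor) stood at 19.2 and 18.9 CPM in T0 replicates 1 and 2 and at 5.01 CPM in T0 replicate 3. It was at 6.78, 8.89 and 14.4 CPM at T1, at 12 to 15.9 CPM at T2 and at 24.5 and 27.9 CPM at T3. Against T0 it passed nowhere (log2 fold change -0.53, -0.04 and 0.88, adjusted p = 0.46, 0.94 and 0.37). Without T0 replicate 3 it was lower at T1 (-0.91, adjusted p = 0.016) and at T2 (-0.45, adjusted p = 0.021). The astrocyte markers move with that library, at 254 CPM in sum against 973 and 1020 CPM in T0 replicates 1 and 2, and 633 to 1080 CPM in the other 9. Their part in the Cdh13 and Cdh10 values was not tested.

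The delta-1 protocadherins carry extra outer repeats and a phosphatase-binding motif in their tails, and all 4 were tested. Pcdh11x (chrX:117403868-118024228, plus strand) rose 4.92 times at T1. It stood at 39.4, 40.7 and 21.8 CPM at T0, 152, 224 and 131 CPM at T1 and 176, 222, 159 and 168 CPM at T2, and the T3 libraries had 220 and 80.1 CPM. Every later library lay above T0, with T3 replicate 4 the lowest of them. On the log2 scale it rose by 2.3 ± 0.3 (adjusted p = 0.0022) at T1 and 2.42 ± 0.24 (adjusted p = 0.00017) at T2, with 2.16 ± 0.48 (adjusted p = 0.062) at T3. Pcdh1, known from airway epithelium, rose at all 3 stages, from 16.1, 15.8 and 11.6 CPM at T0 to 38.6, 43.2 and 36.4 CPM at T1, 34.3, 47.9, 35.8 and 36.3 CPM at T2, and 59.4 and 37.9 CPM at T3. Its log2 fold change was 1.43 ± 0.17 (adjusted p = 0.0017), 1.41 ± 0.18 (adjusted p = 0.00058) and 1.76 ± 0.27 (adjusted p = 0.032). The T3 call of Pcdh1 was lost without T0 replicate 1 or 2 or either T3 library (1.4 to 2.04, adjusted p = 0.072 to 0.23).

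Pcdh9, a brain protocadherin, stood at 35.6, 36.5 and 22.2 CPM at T0, 60.8, 67.2 and 52.3 CPM at T1 and 61.3 to 66 CPM at T2. T3 replicates 1 and 4 had 76.5 and 43.7 CPM, all above T0. The log2 fold change was 0.92 ± 0.21 (adjusted p = 0.019) at T1, 1.02 ± 0.18 (adjusted p = 0.0023) at T2 and 0.95 ± 0.33 (adjusted p = 0.14) at T3. Without T1 replicate 1 or 2 the T1 value was 0.91 or 0.84 (adjusted p = 0.071 or 0.079). Pcdh7 was the delta-1 member that fell. It stood at 66, 71.3 and 80 CPM at T0, 51.7, 54.9 and 38.5 CPM at T1, 56.1, 62.5, 43.7 and 44.2 CPM at T2, and 62 and 70.1 CPM at T3. T1 and T2 lay below T0 without overlap, and T3 replicate 4 lay within T0. It fell by 0.6 ± 0.16 and 0.49 ± 0.15 on the log2 scale at T1 and T2 (adjusted p = 0.032 for both), and the T3 value was -0.12 ± 0.16 (adjusted p = 0.67). It lost its call without T0 replicate 2 or any T1 library (-0.69 to -0.45, adjusted p = 0.064 to 0.085), and at T2 without T0 replicate 2 or T2 replicate 1, 3 or 4 (-0.54 to -0.41, adjusted p = 0.052 to 0.083).

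The delta-2 protocadherins recruit the WAVE complex, a regulator of branched actin, through their tails. Pcdh10 stood at 173, 174 and 110 CPM at T0, 256, 282 and 218 CPM at T1, 255, 262, 274 and 242 CPM at T2, and 273 and 198 CPM at T3. It rose by 0.71 ± 0.2 (adjusted p = 0.036) at T1 and 0.76 ± 0.17 (adjusted p = 0.0075) at T2 on the log2 scale, and its T3 value was 0.64 ± 0.27 (adjusted p = 0.2). Without any 1 of the T1 libraries the T1 value was 0.64 to 0.81 with adjusted p = 0.064 to 0.13. Pcdh19, mutated in a female-limited epilepsy of childhood, stood at 22.3, 21.6 and 17.6 CPM at T0, 39.7, 47.5 and 31.6 CPM at T1 and 53.7, 51.3, 40.8 and 35.8 CPM at T2, with 47.4 and 30.4 CPM at T3. Every later library lay above T0. Its log2 fold change was 0.94 ± 0.19 (adjusted p = 0.011) at T1, 1.15 ± 0.18 (adjusted p = 0.0014) at T2 and 0.94 ± 0.25 (adjusted p = 0.087) at T3. Pcdh18 passed in no comparison, with 41.4 to 63.7 CPM at T0 and 23.3 and 32 CPM at T3. Pcdh8, an activity-regulated protocadherin of synapses, had 32 counts in T3 replicate 1 and at most 7 elsewhere (log2 fold change 3.52 ± 1.07 at T3, adjusted p = 0.11).

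Pcdh15 (chr10:72562090-74112482, plus strand), the tip-link partner of Cdh23, had the largest fold change of all members. It had 9, 2 and 1 counts at T0, 148, 201 and 108 at T1, 419, 451, 430 and 361 at T2, and 535 and 80 at T3. In CPM these are 0.0706 to 0.672 at T0, 12.7, 15.1 and 6.57 at T1, 40.5, 41.9, 39.3 and 22.1 at T2, and 44.5 and 8.63 at T3. The log2 fold change was 5.26 ± 0.66 (adjusted p = 0.002), 6.92 ± 0.52 (adjusted p = 7.5e-05) and 6.5 ± 1.01 (adjusted p = 0.032). The direction held throughout, but the size rests on 12 T0 reads. Without T0 replicate 1 the 3 values were 6.64, 8.29 and 7.88. The T3 call was lost without T0 replicate 1 or 2 or either T3 library (adjusted p = 0.069 to 0.22), with 4.87 without T3 replicate 1 and 7.23 without T3 replicate 4. Cdh23 and Pcdh15 moved in opposite directions at T1 and T2, with summed counts of 79 and 12 at T0 and 12 and 457 at T1. Each passed the count filter through the side where it was high, so this contrast was partly built into their entry.

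**Figure D4:**
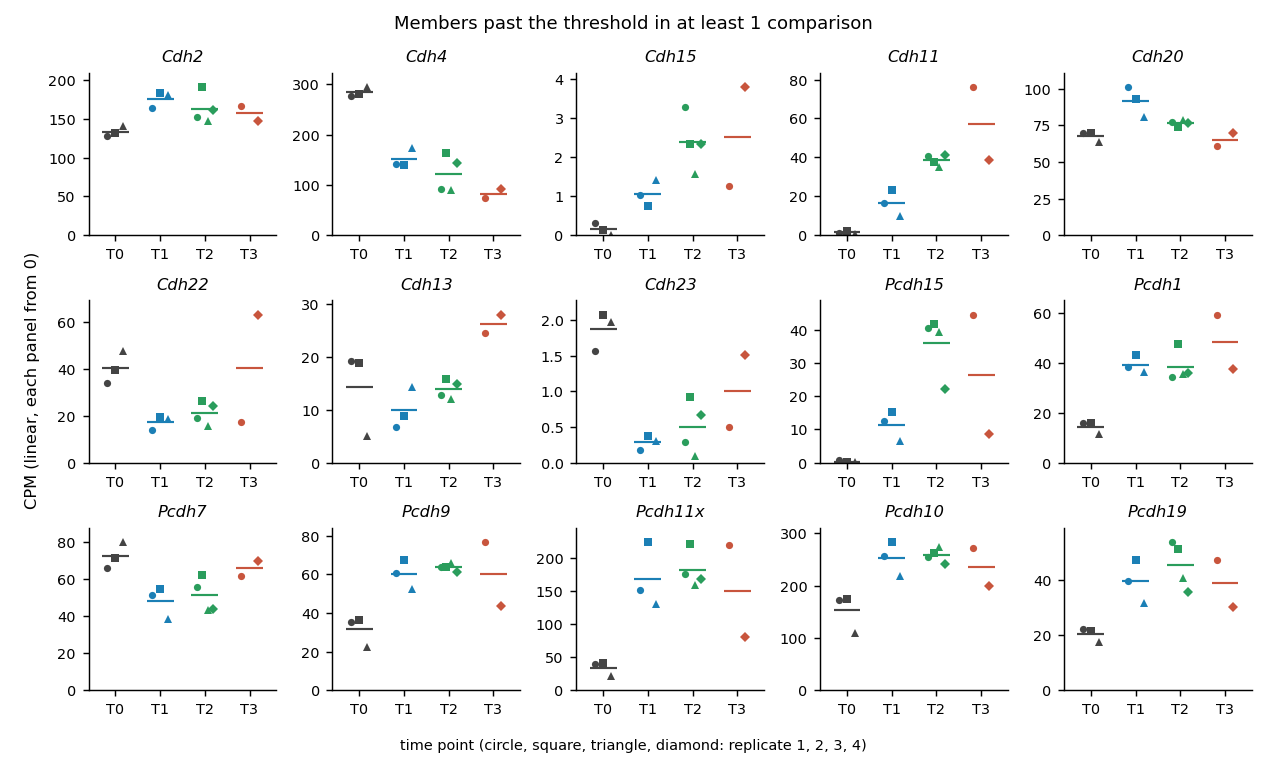
CPM of each library (points, shaped by replicate) with the mean (line) at T0 to T3 for the 15 members past the threshold in at least 1 of 5 comparisons. Axes are linear and start at 0. Cdh4, Cdh22 and Cdh23 drop after T0, Cdh11, Pcdh15 and Pcdh11x rise, and the 2 T3 points lie far apart for Cdh22 (17.5 and 62.8 CPM), Pcdh11x (220 and 80.1 CPM) and Pcdh15 (44.5 and 8.63 CPM).

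The step from T1 to T2 asks what medium B added to the change already made in D1. It moved few members. Of 18 tested, 1 passed, against 0.63% of 12382 genes (0.0565% lower, 0.573% higher), and the median member log2 fold change was 0.1 against -0.0039 over all genes. Pcdh15 rose by 1.66 ± 0.29 on the log2 scale (adjusted p = 0.042), with every T2 library above every T1 library. That call was lost without T1 replicate 1 or 3 or T2 replicate 1, 2 or 3 (1.36 to 1.74, adjusted p = 0.065 to 0.18). Cdh11 followed at 1.23 ± 0.23 (adjusted p = 0.053), also without overlap, and passed without T1 replicate 2 or 3 (1.57 and 0.95, adjusted p = 0.014 and 0.035). With DESeq2 2 members passed, against 2.27% of all genes. The counts and fold changes above come from unpaired fits. Here the replicate numbers may pair the samples, so an alternative fit took the number as a block. In it 2 members passed, Pcdh15 at 1.88 (adjusted p = 0.014) and Cdh11 at 1.25 (adjusted p = 0.034), among 209 genes in all. That fit held only numbers 1, 2 and 3, without T2 replicate 4, which had the lowest Pcdh15 level at T2 (22.1 CPM). Pairing and the missing library cannot be told apart in it. In the fit of all T1 and T2 libraries, Cdh4 was at -0.31 ± 0.2 (adjusted p = 0.6) and Pcdh11x at 0.11 ± 0.18 (adjusted p = 0.87).

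The step from T2 to T3 asks what 10 days in medium B changed over 2 days. Of 18 members 1 passed, against 1.19% of 12599 genes (0.691% lower, 0.5% higher), and with DESeq2 1 against 5.81%. The member median was -0.06 against 0.0066. Cdh13 rose by 0.92 ± 0.16 on the log2 scale (adjusted p = 0.046), with both T3 libraries above all T2 libraries. The call was lost without any 1 of the T2 libraries or without T3 replicate 4 (0.82 to 0.99, adjusted p = 0.068 to 0.15). The 2 T3 libraries gave different answers for other members. Without T3 replicate 1, 5 members passed, among them Cdh22 at 1.57 (adjusted p = 0.0055), Pcdh11x at -1.17 (adjusted p = 0.0094), Pcdh15 at -2.04 (adjusted p = 0.014) and Pcdh9 at -0.54 (adjusted p = 0.03). Without T3 replicate 4 these were at -0.28, 0.28, 0.32 and 0.26 and did not pass, while Cdh11 (0.98, adjusted p = 0.014) and the few reads of Pcdh8 (2.65, adjusted p = 0.034) did. Pcdh8 also passed with no filter (2.04, adjusted p = 0.042). The oligodendrocyte-lineage list summed to 5350 CPM in T3 replicate 1 and 6300 CPM in T3 replicate 4, with Olig1 at 3330 and 4260, Olig2 at 1390 and 1630 and, the other way, Pdgfra at 227 and 67.6 CPM, and Dcx, of young neurons, at 546 and 271 CPM. Their part in the differences between these libraries was not tested.

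Of 13 catenins and plakophilins, which join cadherins to the cytoskeleton, 10 were tested, of which 4 were lower and 2 higher at T1, 4 lower and 3 higher at T2, and 1 lower and 2 higher at T3. Of all genes 31.9%, 43.3% and 4.72% passed in these comparisons. The median log2 fold changes of the 10 were 0.24, 0.13 and 0. Ctnna2, the alpha-catenin of neurons, stood at 0.747, 0.83 and 0.424 CPM at T0, 3.69, 5.57 and 2.86 CPM at T1, 28.3, 23.1, 28 and 24.7 CPM at T2, and 92.1 and 36.3 CPM at T3. The 4 time points did not overlap. Its log2 fold change was 2.57 ± 0.39 (adjusted p = 0.0042), 5.27 ± 0.24 (adjusted p = 2.9e-05) and 6.59 ± 0.53 (adjusted p = 0.014), and 2.7 ± 0.2 (adjusted p = 0.0016) from T1 to T2. Pkp2, a plakophilin of desmosome-like junctions, fell by 1.09, 1.9 and 1.94 (adjusted p = 0.012, 0.00035 and 0.035). Ctnnal1, an alpha-catenin-like protein, rose by 1.06, 1.25 and 1.19 (adjusted p = 0.0019, 0.00016 and 0.04), and Arvcf, a relative of p120, by 1.62 at T2 (adjusted p = 0.016) with 0.84 and 2.07 at T1 and T3 (adjusted p = 0.18 and 0.081). At T0 Ctnna2 had 10, 12 and 6 counts and Arvcf 18, 8 and 7. At T1 and T2 both passed the count filter through the later libraries, so a difference was partly built into their entry. Ctnna1 and Ctnnb1 were picked after their values were seen. Ctnna1, the widely expressed alpha-catenin, had 389 ± 34.3 CPM at T0, then 281 ± 0.823, 245 ± 12.6 and 219 ± 53.6 CPM (log2 fold change -0.48, -0.66 and -0.81, adjusted p = 0.019, 0.0015 and 0.079). Ctnnb1, beta-catenin, was at 1290 to 1740 CPM throughout (adjusted p = 0.061, 0.16 and 0.88).

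**Figure D5:**
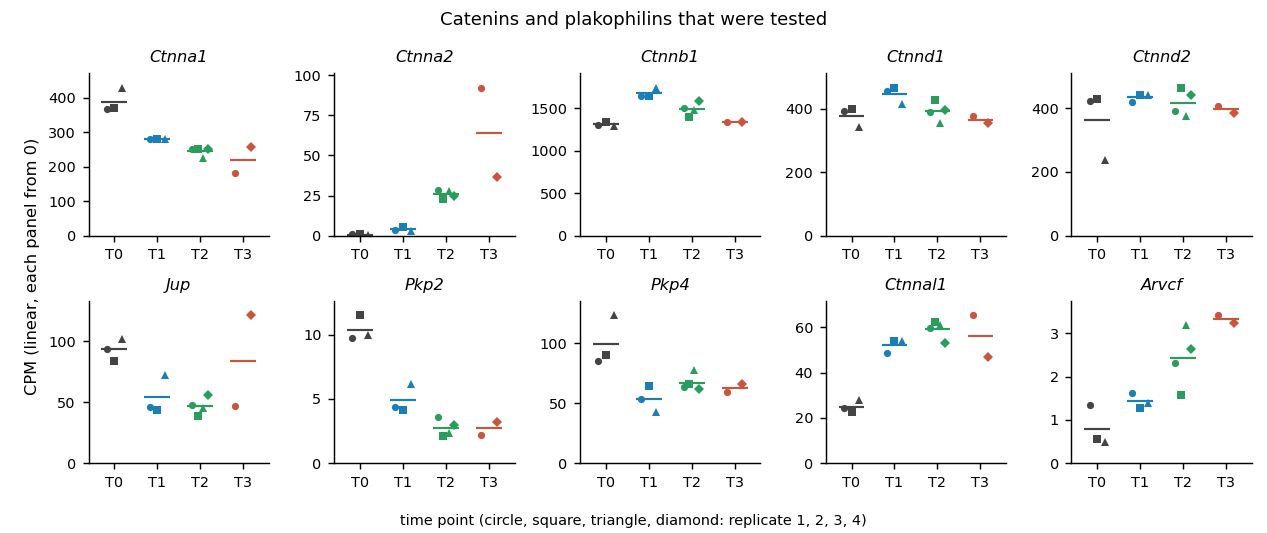
CPM of each library (points, shaped by replicate) and the mean (line) at T0 to T3 for the 10 catenins and plakophilins that were tested. Axes are linear and start at 0. Ctnna2 rises from under 1 CPM at T0 to 36.3 and 92.1 CPM at T3, Ctnna1, Jup and Pkp2 lie lower in all T1 and T2 libraries than in the T0 libraries, and Ctnnb1 stays between 1290 and 1740 CPM.

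Other partner groups were read in the same way. Of the WAVE complex, 8 genes were tested, with 2 lower and 3 higher at T1, 2 and 4 at T2, and none at T3 (5 at an unadjusted p under 0.05 in edgeR's test), against 31.9%, 43.3% and 4.72% of all genes in either direction. Cyfip2, a subunit of the neuronal complex, rose by 2.18 and 2.76 (adjusted p = 0.043 and 0.0048), Wasf1 by 1.03 and 0.96 and Wasf3 by 0.85 and 0.84, while Wasf2 fell by 0.67 and 0.75, each past the threshold. Cyfip2 was at 55 counts in T0 replicate 3 against 375 and 402 in the other T0 libraries. Of 10 proteases that process or shed cadherins, 3 were lower and 4 higher at T1, 4 and 4 at T2, and 0 and 1 at T3, against the same shares of all genes. Mmp24, a membrane-bound metalloprotease of the nervous system, rose from 5, 9 and 1 counts at T0 to 93 to 332 at T1 and T2 (log2 fold change 4.56, 5.43 and 5.07, adjusted p = 0.0011, 1e-04 and 0.028). It passed the count filter through the later libraries, so a difference was partly built into its entry and the size rests on few T0 reads. Psen2, a gamma-secretase subunit, rose by 1.94 and 2.13 and Pcsk5, a proprotein convertase, by 1.67 and 1.4, and Adam15 fell by 0.85 and 0.52.

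Nectins and afadin form the adhesions beside cadherin junctions. Of the 5 tested none was lower, and 2, 2 and 1 were higher at T1, T2 and T3, near the shares of all genes at T1 and T2 (31.9% and 43.3%). Pvrl1 (nectin-1) rose by 0.7, 0.87 and 1.22 (adjusted p = 0.018, 0.0025 and 0.042) and Pvrl2 by 0.62 and 0.65 (adjusted p = 0.0094 and 0.002). Of 11 large and atypical cadherins tested, 1 was lower and 3 higher at T1, 3 and 2 at T2, and 0 and 1 at T3, also near the shares of all genes at T1 and T2. Cdhr1, a cadherin of photoreceptors and olfactory bulb neurons, rose by 1.18, 1.77 and 2.72 (adjusted p = 0.02, 0.0043 and 0.031) from 15 to 17 counts per T0 library. Celsr1, a planar polarity cadherin, fell by 1.44 at T2 (adjusted p = 0.007), and Clstn3, a calsyntenin of synapses, by 1.25 at T1 (adjusted p = 0.035), with -0.84 and 0.36 at T2 and T3 (adjusted p = 0.072 and 0.63). Clstn3 had 16, 19 and 14 counts at T0 and 6, 8 and 6 at T1, and passed the count filter there through T0. The desmocollin Dsc1 rose by 0.94 at T1 (adjusted p = 0.019), with 0.14 and -1.71 at T2 and T3 (adjusted p = 0.8 and 0.091) and means of 3.37, 6.51, 3.63 and 1.03 CPM from T0 to T3. Of the transcriptional repressors known for acting on E-cadherin, 5 were tested and none rose. At T1 2 fell, at T2 3 and at T3 none (1 at an unadjusted p under 0.05 in edgeR's test), where 16.8%, 21.8% and 1.41% of all genes fell. Twist1 was at -0.78 and -0.77 (adjusted p = 0.049 and 0.024), Tcf3 at -0.66 and -0.71 (adjusted p = 0.015 and 0.0029), and Zeb1 at -0.23 and -0.37 (adjusted p = 0.2 and 0.049) at T1 and T2. Zeb1 stayed at 795 to 1030 CPM in the group means, and Snai1, Snai2, Snai3 and Twist2 had at most 4 counts in any library.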

How the data were processed

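The authors made polyA libraries from the 12 ANS cell samples with the TruSeq RNA kit v2, read them on a HiScanSQ instrument, and used TopHat for alignment to mm9. The submitters' processing notes name TopHat2 2.0.6 and HTSeq 0.6.0. They deposited raw read counts per gene for every library, which were not normalized, and 1 table of FPKM values per gene with positions on mm9, whose tool is not given in the sources used here. The strand setting is also not given in the sources used here, so reads of overlapping and antisense genes cannot be told apart. Non-unique alignments, 26% to 39% of all entries, were not counted, and 13.3% to 24.1% of unique reads fell on no gene. These entries stayed out of library sizes.

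Counts were fitted over all genes with edgeR 4.0.16 in R 4.3.3 (TMM, filterByExpr with a minimum count of 10, glmQLFit and glmQLFTest) on the libraries of the 2 groups compared, with Benjamini-Hochberg adjustment over all genes tested and a threshold of 0.05. Values after ± are SD for levels and SE for log2 fold changes. For edgeR fits the SE was derived as the absolute log2 fold change over the square root of the F statistic. DESeq2 1.42.0, other scaling, no filter, 1 fit of all libraries, libraries left out and the replicate number as a block were alternatives. No sample was dropped or imputed in the fits given first. The members and gene lists were chosen with earlier results of these data known. Any member may be named, with values in every library for those past the threshold in at least 1 of 5 comparisons and the 5 highest in mean FPKM. Up to 4 genes of each partner list are named, those past the threshold with the largest change from T0.

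The study calls its replicas independent without saying what sets them apart, so p-values measure the spread between these samples. The numbers were read as a possible pairing of samples only between T2 and T1, and the fit given first was unpaired there too. There deviations from the group means correlated at 0.241, 0.396 and 0.189 for numbers 1, 2 and 3, each highest for its own number. That reading rests on these correlations alone. Single numbers correlated as well elsewhere, at 0.272 for number 4 between T3 and T2 and 0.431 for number 1 between T3 and T0. T3 replicate 4 is numbered after its label, although its FPKM column name also holds a 2. The study's text and labels differ on whether T3 is 10 days after the change to medium B or after T2, and the labels were followed. Of the 36 symbols, 36 are in the FPKM table and 35 match a GENCODE vM1 gene by name. Promoter sequences are from RefSeq on GRCm38.p6 and all other positions from mm9.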

Additional observations from a re-analysis of the deposited data

Results flagged for a closer look

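With 4 libraries at T2, 20 members were checked for a library far from the others, and 3 had a gap over the whole range above the Dixon limit of the test. Chance gives about 1 in 20 such groups. Pcdh1 was at 47.9 CPM in T2 replicate 2 against 34.3 to 36.3 CPM in the others, a gap of 0.855 of the range. Pcdh15 was at 22.1 CPM in T2 replicate 4 against 39.3 to 41.9 CPM (0.869). Pcdh18 was at 33.2 CPM in T2 replicate 3 against 42.5 to 44.1 CPM (0.847). The 3 values come from 3 different libraries.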

How the results depend on the processing

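No member called in the main fits changed direction in any alternative. Leaving out 1 library at a time gave 201 values of called members, of which 149 passed again and 52 did not, and 11 others passed newly. The other settings gave 182 such values, of which 173 passed again, and 20 others passed newly. These counts leave out members that only an alternative tested, of which Cdh29 (T1 against T0) and Pcdh8 (T3 against T2) passed. The count of members past the threshold ranged from 8 (without T1 replicate 1 or 2) to 15 at T1 and from 10 to 14 at T2 with 1 library left out. At T3 it ranged from 0 to 5, was 7 with DESeq2 and 10 in 1 fit of all 12 libraries, and was 0 without either T3 library or without T0 replicate 1 and 1 without T0 replicate 2. With 1 T3 library the lone sample is assumed to vary like the other group. From T1 to T2 the count of 1 ranged from 0 to 2 with 1 library left out, was 2 with DESeq2, with no filter, with the replicate block and with libraries 1 and 2 only, and 0 in 1 fit of all libraries. From T2 to T3 it ranged from 0 to 5 with 1 library left out, was 2 with no filter, 0 in 1 fit of all libraries and 0 with the replicate block. The cause of these moves was not tested. Over all genes, T1 against T0 gave 3949 calls in edgeR, 7462 with libraries 1 and 2 only and 1750 to 6290 with 1 library left out, and T2 against T0 gave 5455 and 3091 with the replicate block. T3 against T0 gave 600 calls, 2023 with DESeq2, 1165 with no filter, 3865 in 1 fit of all libraries and 0 to 2317 with 1 library left out. T2 against T1 gave 78, and in the same order 304, 161, 3 and 9 to 68, with 209 under the replicate block. T3 against T2 gave 150, and in the same order 760, 719, 42 and 1 to 1347, with 13 under the replicate block.

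The numbers did not pair T0 with T1 (r = -0.00782, 0.135 and 0.0818) or with T2 (-0.0803, 0.0213 and -0.155), nor T2 with T3 (-0.0327 and 0.272), and not every library correlated best with its own number. With the replicate block 12 members passed at T1 and 10 at T2. The block kept only libraries whose number was in both groups. It left out T2 replicate 4 against T0 and T1, and T2 replicates 2 and 3 against T3. T3 shares only number 1 with T0 (r = 0.431), so no blocked fit was made there. The 5 members highest in FPKM were the same with TPM and with a 1 FPKM minimum, but neither setting could test this. TPM rescales each library as a whole and keeps the order within it, and all 5 lay far above the minimum. Depth limits what can be said of the 12 members with at most 10 counts per library.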
